A study of Mus musculus with 20 samples.

Results

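Apolipoproteins are the protein part of the particles that carry lipid in blood, and 10 of their genes are described here in mouse liver: Apoa1, Apoa2, Apoa4, Apoa5, Apob, Apoc1, Apoc3, Apoe, Apoh and Apom. They were taken by symbol, and all 10 had an intact line among the 23993 genes whose line in the count table was intact, of 35504 genes listed. Liver RNA from 20 female mice was sequenced, 1 library per animal, in 4 groups of 5. The groups crossed a diet holding oral combined contraceptives (OC) or vehicle with voluntary wheel running (VWR) or a sedentary cage. They were vehicle and sedentary (Con.Sed), vehicle and running (Con.VWR), OC and sedentary (OC.Sed), and OC and running (OC.VWR). Strain, age, the hormones in the diet and the length of feeding are not given in the sources used here, and no genotype differs between the groups. Whole liver was used, so fewer hepatocytes and less RNA per hepatocyte cannot be told apart.

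The liver packages triglyceride and cholesterol ester around apolipoprotein B and secretes the particle as very low density lipoprotein, and it releases apolipoprotein A-I, which gathers phospholipid and cholesterol into high density lipoprotein. Smaller apolipoproteins exchange between particles and set how they are emptied and cleared: C-II activates lipoprotein lipase, C-III and C-I slow clearance, A-V favours it, and E is the ligand of hepatic receptors. Oestrogens and progestogens are known to alter plasma lipoproteins, and the liver is the main source of most of these proteins.

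In the OC groups Apoa4 was lower than in every vehicle library of the same activity, Apoa1 and Apoc1 were lower in sedentary mice, and Apoa2, Apoa5, Apoc3 and Apoe did not pass the test in any comparison. Apoa1, Apoc3, Apoa4 and Apoa5 lie side by side on chromosome 9, so genes that fell and genes that did not pass are neighbours. The stretches around the RefSeq start sites of Apoa1 (chr9:46228380-46228679, plus strand), Apoa4 (chr9:46240594-46240893, plus strand) and Apoa5 (chr9:46268358-46268657, plus strand, the first of 2 listed) are shown for that reason, with that of Apom on another chromosome (chr17:35131752-35132051, minus strand). Each runs 5′ to 3′ from 250 bases before to 50 bases after the start, as RefSeq gives it for GRCm38.p6. These starts differ from those of the GENCODE gene spans given below. Most of the Apoa4 window and nearly all of the Apom window lie inside those spans. Capitals mark a match to CAAAGTNCA, a form of the site of the hepatic nuclear receptor HNF4, searched on both strands.

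Apoa1: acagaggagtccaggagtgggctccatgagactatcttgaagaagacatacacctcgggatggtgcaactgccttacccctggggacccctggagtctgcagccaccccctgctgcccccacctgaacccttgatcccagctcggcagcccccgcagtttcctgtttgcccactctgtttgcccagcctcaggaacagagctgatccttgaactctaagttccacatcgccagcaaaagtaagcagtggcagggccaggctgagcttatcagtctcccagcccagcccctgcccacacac
Apoa4: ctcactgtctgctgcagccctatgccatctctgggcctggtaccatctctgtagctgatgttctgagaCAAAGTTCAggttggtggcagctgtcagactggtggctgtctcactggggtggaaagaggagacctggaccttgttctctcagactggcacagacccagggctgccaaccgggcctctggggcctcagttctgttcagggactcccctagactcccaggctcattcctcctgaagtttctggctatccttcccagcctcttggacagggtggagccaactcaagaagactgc
Apoa5: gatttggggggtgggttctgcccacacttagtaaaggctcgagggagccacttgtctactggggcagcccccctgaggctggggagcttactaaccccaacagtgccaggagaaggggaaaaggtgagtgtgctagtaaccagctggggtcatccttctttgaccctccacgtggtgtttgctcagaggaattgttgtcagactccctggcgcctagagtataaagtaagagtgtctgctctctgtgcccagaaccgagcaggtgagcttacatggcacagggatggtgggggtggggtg
Apom: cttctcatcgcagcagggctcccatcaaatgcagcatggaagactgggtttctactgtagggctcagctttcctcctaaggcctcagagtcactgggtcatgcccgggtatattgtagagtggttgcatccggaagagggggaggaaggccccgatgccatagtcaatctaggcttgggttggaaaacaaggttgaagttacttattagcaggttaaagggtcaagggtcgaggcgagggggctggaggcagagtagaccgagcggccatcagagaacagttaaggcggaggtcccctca

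Windows were listed for 8 of the 10 genes, without Apoc1 and Apoc3. The HNF4-type letters were found in the Apoa4 window only, as CAAAGTTCA on the plus strand at position -182 from the RefSeq start, and in 464 of 32851 windows of that length (1.41%). AGGTCA, the single-repeat core of nuclear receptor sites, was found in the window of Apoh (16.26% of all windows) and TATAAA in those of Apoa2, Apoa5 and Apob (13.62%). The Apoh window (chr11:108395047-108395346) lies inside the gene span given below. TTCNNNGAA, the form bound by STAT factors, was in none of the 8 (8.3% of all windows). No motif contains another, all were searched on both strands, they were chosen after the expression values were known, and a match describes letters and not a bound site.

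Total counts ran from 10883936 to 16134618 per library, and 10207 genes passed the filter on low counts, all 10 apolipoprotein genes among them. The lowest count of any of the 10 was 1891 (Apoa4, OC sedentary replicate 3), so counting error is small in these comparisons. Levels are CPM, counts scaled to a common library size after trimmed-mean (TMM) normalisation, changes are fitted log2 fold changes with their standard error (SE), and a gene was called at a Benjamini-Hochberg adjusted p under 0.05 in edgeR's quasi-likelihood test over all 10207 genes. Replicate 2 of the vehicle sedentary group stood apart from the other 4 libraries of its group in Apoa4, Apoa2 and Apoh, and results that rest on it are given with and without it. Of 6 intact hepatocyte markers of 8, averaged over activity, 3 fell on OC, Alb (albumin, log2 fold change -0.78, adjusted p = 8.49e-06), Ttr (-0.40) and Cps1 (-0.35), and 1 rose, Tat (0.68, adjusted p = 0.00125). Ass1 (-0.34) and Fgb (-0.07) did not pass. Over all genes 11.0% were called lower and 11.9% higher in that contrast. The summed CPM of the 6 markers, of which Alb makes up most, lay at 133145 to 186438 in vehicle and 76046 to 112024 in OC libraries. The part of these marker changes in the results below was not tested.

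The 10 genes together took 7.53% ± 0.269 of all counts in vehicle sedentary mice (SD, n = 5), 7.51% ± 0.505 in vehicle running, 6.89% ± 0.0937 in OC sedentary and 7.33% ± 0.342 in OC running mice. In sedentary mice all 5 OC shares (6.77% to 6.97%) lay below all 5 vehicle shares (7.17% to 7.86%). Apoe alone supplied 43.9% to 47.5% of the summed counts of these 10 genes, as means of each group of mice.

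Per kilobase of exon, levels in vehicle sedentary mice were 16175 ± 1657 CPM per kb for Apoe, 13815 ± 3117 for Apoa2, 11850.0 ± 1341 for Apoa1 and 10449 ± 1108 for Apoc1. The library ranges of neighbours in this order overlapped. A wide step followed, to Apoc3 at 1885 ± 268 and Apoh at 1787 ± 299.7 CPM per kb, whose ranges also overlapped. Apoa5 stood at 963 ± 168, Apoa4 at 728 ± 1060.1, Apom at 408 ± 75.1 and Apob at 373 ± 54.3 CPM per kb. The Apoa4 mean was set by replicate 2, at 2622 CPM per kb against 177 to 319 in the other 4 and those 4 lay below every library of Apom. Apob, whose message is by far the longest at 13934 bases of exon, gave 5204 ± 757 CPM before division by length.

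**Figure D1:**
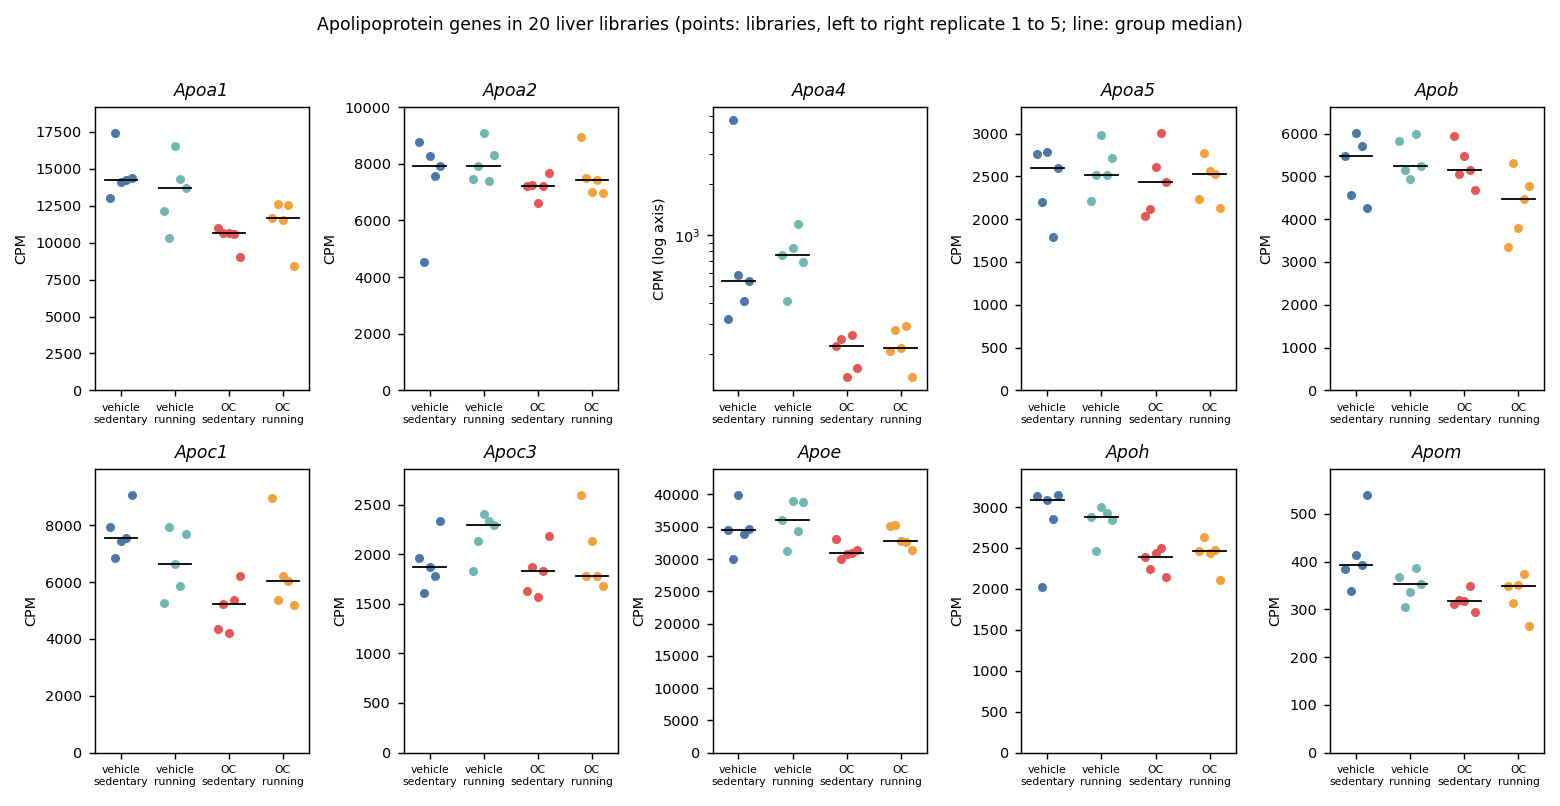
Level of each of the 10 genes in 20 liver libraries, in CPM, by group. Points are libraries and lines are group medians. Axes start at 0 except for Apoa4, which has a log axis and where all OC points lie below all vehicle points of the same activity.

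In sedentary mice 4 of the 10 genes were lower on OC (Apoa1, Apoa4, Apoc1 and Apom) and 0 were higher, against 7.20% of all tested genes lower, 9.11% higher and 16.3% called in either direction. For Apoa1, Apoa4 and Apoc1 the groups did not overlap, and the share of all genes without overlap was not computed. In running mice 1 of 10, Apoa4, was lower, against 6.06% of all genes lower, 7.09% higher and 13.2% called. Averaged over activity 5 of 10 were lower (Apoa1, Apoa4, Apoc1, Apoh and Apom), against 11.0% lower, 11.9% higher and 22.9% called. The median log2 fold change of the 10 was -0.21 in sedentary mice, -0.12 in running mice and -0.19 averaged. Over all genes it was -0.01, 0.01 and 0.00. Of the 10 values 8, 10 and 10 were negative, beside 51.8%, 49% and 49.9% of all genes. The 10 genes share libraries and scaling. Scaled by library totals alone, the median of all genes moved to 0.10, 0.12 and 0.11 and 6, 5 and 7 of the 10 values were negative, so the sign of a small change here is relative to the bulk of genes. Relative to that median, Apoa1 was at -0.49, -0.25 and -0.37 with library totals.

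**Figure D2:**
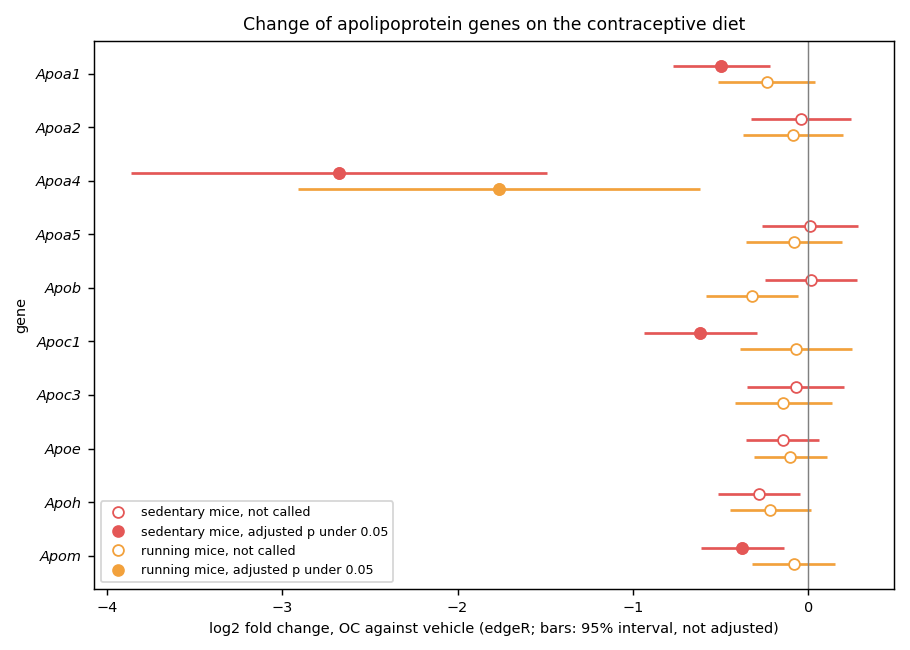
Fitted log2 fold change (OC over vehicle) of each gene for sedentary and running animals, with unadjusted 95% intervals. Filled points passed the adjusted threshold: Apoa1, Apoa4, Apoc1 and Apom in sedentary mice, and Apoa4 in running mice.

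Apoa1 (chromosome 9, 46228580 to 46230466, plus strand) encodes the main protein of high density lipoprotein and the activator of the cholesterol-esterifying enzyme LCAT. In sedentary mice it was at 13046, 17459, 14118, 14241 and 14369.7 CPM on vehicle and at 10992, 10681, 10634, 10574 and 9047 CPM on OC (replicates 1 to 5). All 5 OC libraries lay below the lowest vehicle library, and replicate 5 was the lowest. The change was a 1.41-fold fall (log2 fold change -0.50, SE 0.13, adjusted p = 0.0152), called in all 28 alternatives. In running mice the values were 12135, 10341, 16548, 14288 and 13729 CPM on vehicle and 11655, 12638, 11522, 12553 and 8441 CPM on OC. The groups overlapped, with vehicle replicate 2 below 4 of the OC libraries and vehicle replicate 1 below 2 of them, and the log2 fold change of -0.24 (SE 0.13, adjusted p = 0.246) did not pass. The averaged log2 fold change of Apoa1 was -0.37 (SE 0.09, adjusted p = 0.00671).

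Apoa2 (chromosome 1, 171225054 to 171226379, plus strand), the second most abundant protein of high density lipoprotein, gave 8762, 4529, 8292, 7579 and 7932 CPM on vehicle and 7229, 7260.0, 6615, 7227 and 7679 CPM on OC in sedentary mice. Replicate 2 of the vehicle group was the lowest of all 20 libraries, while the OC libraries lay close together. The log2 fold change was -0.04 (95% interval -0.33 to 0.24, adjusted p = 0.864), 0.08 with library totals alone, and -0.18 (adjusted p = 0.224) without that replicate. In running mice the ranges were 7383 to 9105 CPM on vehicle and 6979 to 8932 CPM on OC, with a log2 fold change of -0.09 (95% interval -0.37 to 0.20, adjusted p = 0.717, and 0.03 with library totals alone).

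Apom (chromosome 17, 35128997 to 35132050, minus strand) encodes a lipocalin of high density lipoprotein that carries sphingosine 1-phosphate. Sedentary mice had 384, 338, 414, 393 and 540.2 CPM on vehicle and 310.4, 319.7, 318, 349 and 295 CPM on OC. Only OC replicate 4 reached above a vehicle library, replicate 2. The fall was 1.30-fold (log2 fold change -0.38, SE 0.11, adjusted p = 0.0289). This call was lost without vehicle sedentary replicate 5, the highest library (-0.27, adjusted p = 0.0792), without OC sedentary replicate 1, 2 or 5 (adjusted p = 0.0561, 0.0551 and 0.0718), with only these 2 groups in the fit (0.0547) and with library totals alone (0.0626). In running mice the range was 306 to 386 CPM on vehicle and 266 to 373 CPM on OC (log2 fold change -0.08, SE 0.11, adjusted p = 0.67, and 0.03 with library totals alone). The averaged change of -0.23 (SE 0.08, adjusted p = 0.0438) was lost in 10 of 20 fits that left out 1 library, with adjusted p of 0.0503 to 0.0803. It was also lost with library totals alone (-0.11, adjusted p = 0.212), with no filter on low counts (0.0601) and with displaced lines put back (0.0656, a fit that also lacks vehicle running replicate 5). In the 10 fits the library left out was replicate 3 or 5 of vehicle sedentary, 1, 4 or 5 of vehicle running, 2 or 5 of OC sedentary, or 2, 3 or 5 of OC running.

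Apoa4 (chromosome 9, 46240696 to 46243459, plus strand) encodes a protein of chylomicrons and high density lipoprotein that in mice is made by both gut and liver and follows hepatic lipid load. In sedentary mice it gave 321, 4758, 579, 408 and 539 CPM on vehicle and 221, 243, 145, 257 and 165 CPM on OC. Vehicle replicate 2 stood far above the other 4 of its group, and the lowest vehicle library was still above the highest OC library. The fitted fall was 6.40-fold (log2 fold change -2.68, SE 0.57, adjusted p = 0.00324). Without replicate 2 the log2 fold change was -1.16 (adjusted p = 0.00342), so the call held and the size was smaller. It was called in all 28 alternatives.

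Running mice showed the same order of groups for Apoa4, with 762, 410.0, 839.9, 1153 and 698 CPM on vehicle and 207, 277, 216, 291 and 145 CPM on OC. Every OC library was below every vehicle library. The fall was 3.40-fold (log2 fold change -1.77, SE 0.55, adjusted p = 0.0379). The spread used in the test is shared over all 20 libraries: without vehicle sedentary replicate 2 the log2 fold change was the same at -1.77 and the adjusted p was 3.9e-05. The call was lost in 8 of 20 fits that left out 1 library, at adjusted p of 0.052 to 0.0943, with log2 fold changes of -1.87 to -1.57. Those were the fits without replicate 1, 3, 4 or 5 of vehicle running or replicate 1, 3, 4 or 5 of OC running. Averaged over activity Apoa4 fell 4.66-fold (log2 fold change -2.22, SE 0.40, adjusted p = 0.000319), and by 1.46 on the log2 scale without vehicle sedentary replicate 2 (adjusted p = 2.79e-06).

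Gm10680, annotated as an antisense gene whose exons overlap those of Apoa4, gave 31.5 CPM in vehicle sedentary replicate 2, 2.04 to 6.52 CPM in the other vehicle libraries and 0.698 to 1.98 CPM in OC libraries. It was highest in the library where Apoa4 was highest and low wherever Apoa4 was low. The strand setting of the counting is not given in the sources used here, so reads of the 2 genes cannot be told apart. Markers of intestinal epithelium, another source of Apoa4, summed to at most 1.74 CPM over the 3 of 6 with intact lines (0.146 to 1.74 in vehicle sedentary, 0.0633 to 0.602 in vehicle running, 0.0729 to 0.388 in OC sedentary and 0 to 0.368 in OC running), and 2 of these 3 had 0 counts in every library. Vehicle sedentary replicate 2 held 0.347 CPM of them.

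Apob (chromosome 12, 7977648 to 8016835, plus strand) encodes the structural protein of very low and low density lipoprotein. Its values in sedentary mice were 5474, 4559.9, 6024, 5700.1 and 4262 CPM on vehicle and 5933, 5062, 5478, 5145 and 4675 CPM on OC. The groups lay over each other, with a log2 fold change of 0.02 (95% interval -0.25 to 0.28, adjusted p = 0.953), whose sign differed between alternatives. In running mice the values were 5821, 5140.4, 4937, 5980.2 and 5241 CPM on vehicle and 3359, 5309.7, 3797, 4469 and 4768 CPM on OC. Here 4 of 5 OC libraries lay below all vehicle libraries and replicate 2 lay among them. The log2 fold change was -0.32 (SE 0.13, adjusted p = 0.0982). It passed in DESeq2 (adjusted p = 0.0496) and without OC running replicate 2 (-0.40, adjusted p = 0.0372).

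Apoe (chromosome 7, 19696109 to 19699188, minus strand), the ligand by which remnants enter hepatocytes, was at 34443, 30027, 39962, 33874 and 34605 CPM on vehicle and 33062, 29989, 30832, 30861 and 31338 CPM on OC in sedentary mice. OC replicate 2 lay just below the lowest vehicle library and the other 4 lay inside the vehicle range. The log2 fold change was -0.15 (95% interval -0.36 to 0.06, adjusted p = 0.334). In running mice Apoe ranged from 31285 to 38965 CPM on vehicle and 31335 to 35335 CPM on OC (log2 fold change -0.10, 95% interval -0.31 to 0.11, adjusted p = 0.537, and 0.01 with library totals alone).

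Apoc1 (chromosome 7, 19689481 to 19692660, minus strand) lies beside Apoe and encodes a small protein that hinders receptor uptake of remnants and the cholesteryl ester transfer protein, which mice lack. In sedentary mice it gave 7936, 6866, 7448, 7539 and 9080.2 CPM on vehicle and 4360.3, 5215, 4195, 5368 and 6225 CPM on OC. No OC library reached the lowest vehicle library. The fall was 1.53-fold (log2 fold change -0.62, SE 0.15, adjusted p = 0.0102), called in all 28 alternatives. In running mice it gave 5277, 7932, 6649, 5855 and 7681 CPM on vehicle and 8953, 5389.6, 6211, 6052 and 5209.7 CPM on OC. The groups overlapped fully, and OC replicate 1 was the highest of the 10 running libraries. The log2 fold change was -0.07 (SE 0.15, adjusted p = 0.802), and 0.04 with library totals alone. The averaged fall was 1.27-fold (log2 fold change -0.34, SE 0.11, adjusted p = 0.0264). That call was lost without vehicle running replicate 2 (adjusted p = 0.0521) or 5 (adjusted p = 0.0517), and library totals alone gave an adjusted p of 0.0971.

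Apoc3 (chromosome 9, 46232933 to 46235636, minus strand), an inhibitor of lipoprotein lipase and of remnant uptake, ranged from 1605 to 2335 CPM on vehicle and 1570.3 to 2186 CPM on OC in sedentary mice (log2 fold change -0.07, 95% interval -0.35 to 0.20, adjusted p = 0.745, and 0.05 with library totals alone). In running mice the values were 1832, 2135, 2408, 2333 and 2294 CPM on vehicle and 2600.3, 1777, 2129, 1782 and 1679.6 CPM on OC. OC replicate 1 was the highest of the 20 libraries and 3 OC libraries lay below all vehicle libraries. The log2 fold change was -0.14 (95% interval -0.42 to 0.13, adjusted p = 0.511).

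Apoa5 (chromosome 9, 46268633 to 46271919, plus strand) encodes a protein that lowers plasma triglyceride by favouring lipolysis. It ranged from 1795 to 2779 CPM on vehicle and 2038 to 3011 CPM on OC in sedentary mice, and from 2217 to 2979 and 2130.5 to 2769 CPM in running mice. The groups overlapped in both. The log2 fold changes were 0.01 (95% interval -0.27 to 0.28, adjusted p = 0.979), whose sign differed between alternatives, and -0.08 (95% interval -0.36 to 0.19, adjusted p = 0.727, and 0.03 with library totals alone).

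Apoh (chromosome 11, 108343354 to 108414396, plus strand) encodes beta-2-glycoprotein I, a plasma protein that binds anionic phospholipid. In sedentary mice it gave 3133, 2020.2, 3081, 2855 and 3151 CPM on vehicle and 2393, 2244, 2433, 2499.5 and 2144 CPM on OC. Vehicle replicate 2 was the lowest of the 10 and the other 4 lay above every OC library. The log2 fold change of -0.28 (SE 0.11, adjusted p = 0.0875) did not pass, but did without vehicle sedentary replicate 2 (-0.38, adjusted p = 0.0054) and in DESeq2 (adjusted p = 0.0332). In running mice it gave 2875, 2463, 3001, 2923 and 2844 CPM on vehicle and 2467, 2639.9, 2443, 2477 and 2112 CPM on OC (log2 fold change -0.22, SE 0.11, adjusted p = 0.209). Averaged over activity it fell 1.19-fold (log2 fold change -0.25, SE 0.08, adjusted p = 0.0255). The averaged call was lost at an adjusted p of 0.0501 when OC sedentary replicate 5 was left out, and at 0.126 (log2 fold change -0.13) with library totals alone. The exons of Apoh overlap Prkca on the other strand.

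Wheel running changed none of the 10 genes by the edgeR test, on either diet or averaged, where 0 of 10207 genes (0%) were called. At an unadjusted p under 0.05 there were 1 of the 10 on vehicle (Apom, log2 fold change -0.24), 2 on OC (Apob -0.28 and Apoc1 0.33) and 0 averaged, beside 13.9%, 6.8% and 4.86% of all genes. DESeq2 called 41, 1 and 2 of all genes and limma voom 0, and neither called any of the 10. For Apoa4 on vehicle, the running contrast was -0.77 (SE 0.54, adjusted p = 0.518), and 0.74 (adjusted p = 0.366) without vehicle sedentary replicate 2, so its direction rested on that library. The other 9 values on vehicle lay between -0.24 and 0.20.

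The interaction asked whether the change on OC differed between running and sedentary mice. Of the 10 genes 0 were called, as of all genes in edgeR (0%), while DESeq2 called 58 genes and limma voom 0, none of them among the 10. Unadjusted, 17.7% of all genes and 1 of the 10 had p under 0.05. That gene was Apoc1, with an interaction of 0.55 on the log2 scale (SE 0.22, adjusted p = 0.228). So the loss of the Apoc1 and Apoa1 calls in running mice was not shown to be a difference from sedentary mice. The interaction was 0.26 (SE 0.19) for Apoa1, 0.29 (SE 0.16) for Apom and -0.34 (SE 0.18) for Apob. For Apoa4 it was 0.91 (SE 0.76), and -0.60 without vehicle sedentary replicate 2.

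Between mice of a group the 10 genes did not vary as one. After each group's mean was subtracted, the 45 pairwise correlations of log2 CPM over 20 libraries had a median of 0.22 and ran from -0.76 to 0.84. Apoc1 and Apoc3, on different chromosomes, had the highest (r = 0.84, and 0.84 over 19 libraries without vehicle sedentary replicate 2). Apob ran against both, at -0.72 with Apoc1 and -0.68 with Apoc3 (-0.82 and -0.84 over the 19). Apoa1 and its neighbour Apoa4 had r = 0.65 (0.74 over the 19). The lowest value, -0.76 for Apoa2 with Apoa4, rested on that library and was 0.00 without it, and Apoa1 with Apoh moved from 0.15 to 0.82. These points share libraries and scaling and are given as a description.

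The opposed spread of Apob and Apoc1 went with an index of long against short genes. Genes averaging 10 CPM or more, without the 10 apolipoprotein genes, were sorted by exon length. Each gene's log2 level was taken relative to its mean over the 20 libraries. For each library the index was the median of the 1644 longest genes (at least 7159 bases) minus that of the 1644 shortest (at most 2891 bases). This index ran from -0.24 to 0.09 in vehicle sedentary, 0.00 to 0.12 in vehicle running, -0.03 to 0.27 in OC sedentary and -0.31 to 0.19 in OC running libraries, where replicates 1, 3 and 4 were at -0.31, -0.24 and -0.16. With group means subtracted, its correlation over 20 libraries was 0.85 for Apob (13934 bases), -0.68 for Apoc1 (744 bases) and -0.63 for Apoc3 (1014 bases). It did not follow length across all 10: it was -0.02 for Apoa2, the shortest at 537 bases, -0.18 for Apoa1 (1236 bases) and -0.42 for Apom (1013 bases), and between -0.25 and 0.17 for the other 4 genes. With the index as a covariate, an alternative chosen after seeing the data, the Apoc1 interaction was 0.20 (adjusted p = 0.912) and that of Apob -0.03 (adjusted p = 0.985). The Apob change in running mice was -0.15 (adjusted p = 0.343) and that of Apoc1 -0.27 (adjusted p = 0.224). The sedentary call of Apom was lost (adjusted p = 0.074), and those of Apoa1, Apoc1 and Apoa4 remained, with Apoc1 at -0.48 (adjusted p = 0.0177). RNA integrity values were not used here, and what sets the index was not tested.

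**Figure D3:**
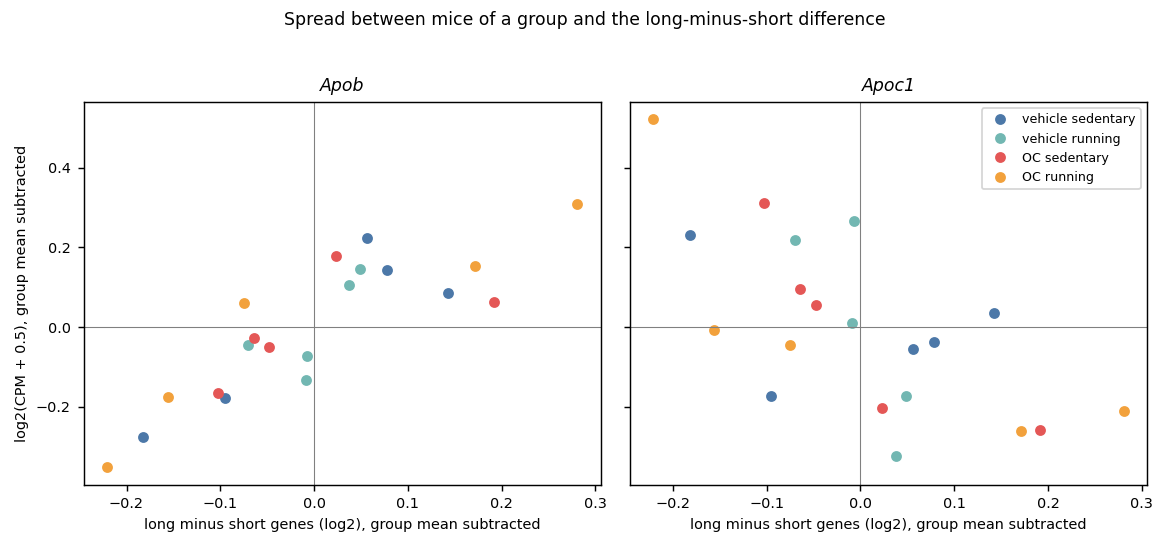
Apob (left) and Apoc1 (right) in 20 libraries against the difference between long and short genes, both with the mean of each group subtracted. Each point is a library, coloured by group. Apob rises with the index (r = 0.85) and Apoc1 falls (r = -0.68).

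By the same measure the genes most like Apob, among 6583 compared, were F5 (r = 0.93), Hectd4 (0.91) and Lpp (0.91), and those most like Apoc1 were Cox6c (0.95), Rpl37 (0.94) and Jtb (0.93). For Apoa1 they were Il17rb (0.74), Zswim4 (0.74) and Ilvbl (0.71). For Apoa4 they were Nudt18 (0.91), Mcm7 (0.89) and Rrm1 (0.88), which fell to 0.63, 0.58 and 0.52 without vehicle sedentary replicate 2.

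The neighbours of the clusters were read from 2 fixed lists. Of 6 tested genes around the Apoa1 cluster, of 8 listed, 1 was called averaged over activity (22.9% of all genes), Cadm1, a cell adhesion molecule, lower by 0.36 on the log2 scale (adjusted p = 0.00507). Cadm1 starts at 47530173, far beyond Apoa5 and the nearer genes Zpr1 and Bud13, and the nearer tested genes of the list were not called in this contrast. Zpr1, the next gene beyond Apoa5, was at 0.22 (SE 0.14, adjusted p = 0.273), and the kinase gene Sik3 on the other side at -0.11 (SE 0.11, adjusted p = 0.492, and 0.01 with library totals alone). Of the 8 genes beside Apoe and Apoc1, all tested, 1 was called, Relb, an NF-kappaB subunit with group means of 1.95 to 3.67 CPM (-0.48, adjusted p = 0.0497). Its call was lost in 14 of 20 fits without 1 library (adjusted p = 0.0585 to 0.0963), the exceptions being vehicle sedentary replicate 1, vehicle running 4, OC sedentary 3 and 4 and OC running 2 and 3. Clptm1 (0.05, SE 0.06) and Nectin2 (0.14, SE 0.14) did not pass. In sedentary and in running mice 0 or 1 neighbours of each cluster were called on OC, beside 16.3% and 13.2% of all genes.

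**Figure D4:**
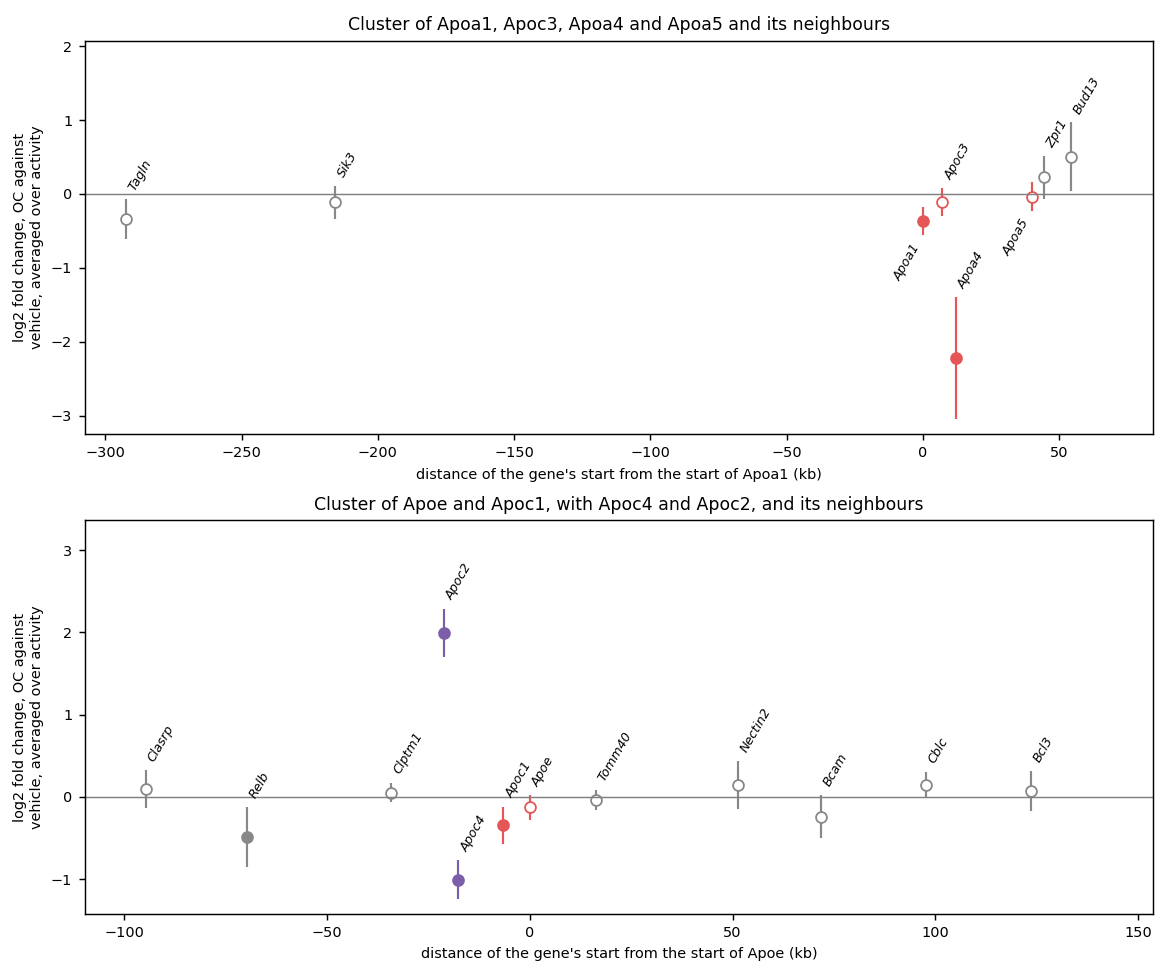
Averaged log2 fold change on OC of genes in the 2 clusters, with unadjusted 95% intervals, against the distance of each gene's start from that of Apoa1 (top) or Apoe (bottom) in kilobases. Red marks those of the 10 genes that lie in the clusters (Apoa1, Apoc3, Apoa4, Apoa5, Apoc1 and Apoe), purple Apoc2 and Apoc4 and grey other neighbours. Filled points passed the adjusted threshold, and Cadm1 lies beyond the range shown. Apoa4 is the lowest point of the upper panel at -2.22, and Apoc2 and Apoc4, whose exons overlap a readthrough gene, lie on opposite sides of 0 in the lower panel.

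Of 14 other genes named as apolipoproteins 11 were tested, and averaged over activity 1 rose and 2 fell, 3 of 11 beside 22.9% of all genes called. Apoc2 (chromosome 7, 19671579 to 19677941, minus strand), which encodes the activator of lipoprotein lipase, gave 366, 938, 434, 484 and 478 CPM on vehicle and 1621, 2152, 1427, 1792 and 2023 CPM on OC in sedentary mice. In running mice it gave 415, 501, 436, 435 and 443 CPM on vehicle and 2736, 1695, 2195, 2003 and 1896 CPM on OC. Every OC library lay above every vehicle library in both. The rise was 3.34-fold in sedentary and 4.72-fold in running animals (log2 1.99 when averaged, SE 0.14, adjusted p = 1.76e-09), called in every alternative run. Apoc4 (chromosome 7, 19678083 to 19681479, minus strand), next to it, went the other way. Its sedentary means were 1379 ± 152 CPM on vehicle and 579.6 ± 90.7 CPM on OC, and its running means 1210.0 ± 169 and 715 ± 196 CPM (SD, n = 5), an averaged 2.01-fold fall (SE 0.11 on the log2 scale, adjusted p = 1.33e-06). Its groups did not overlap in sedentary mice and did in running mice, where OC replicate 1 at 997 CPM passed vehicle replicate 1 at 978 CPM.

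Both Apoc2 and Apoc4 share exons with the readthrough gene Gm44805 on the same strand, so how reads were split among the 3 cannot be told apart here and both values are uncertain. Gm44805 held more counts than Apoc2 in all 20 libraries. The excess was 4103 to 5971 counts in vehicle and 1868 to 3973 in OC libraries. The ratio of Apoc2 to Apoc4 counts was 0.29 to 0.71 in vehicle and 2.67 to 3.89 in OC libraries. Among the rest, Apol7a fell (-0.47, SE 0.15, adjusted p = 0.0245, and adjusted p = 0.0656 with library totals alone), and Clu (0.05, SE 0.07) and Apof (0.02, SE 0.08) did not pass.

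Of 11 genes of lipoprotein assembly and secretion 8 were tested. Averaged over activity 2 rose and 1 fell, beside 11.9% of all genes higher and 11.0% lower. In sedentary mice 2 rose and 0 fell, beside 9.11% of all genes higher and 7.20% lower. In running mice 0 rose and 1 fell, beside 7.09% of all genes higher and 6.06% lower. Mttp, the transfer protein that loads lipid onto apolipoprotein B, had means of 407 ± 37.8 CPM on vehicle and 524 ± 35.2 CPM on OC in sedentary mice and was at 439 ± 37.3 and 465 ± 21.8 CPM in running mice (SD, n = 5). Averaged, it rose 1.17-fold (SE 0.06 on the log2 scale, adjusted p = 0.009). Surf4, a cargo receptor for lipoproteins leaving the endoplasmic reticulum, rose by 0.25 (SE 0.06, adjusted p = 0.00705). Neither was called in running mice alone, where Mttp was at 0.08 (adjusted p = 0.551) and Surf4 at 0.23 (adjusted p = 0.0907). Sort1, a sorting receptor that binds apolipoprotein B, fell by 0.82 (SE 0.19, adjusted p = 0.00296) from 10.1 ± 3.52 to 5.96 ± 1.53 CPM in sedentary mice. Mia2 (-0.03, SE 0.06) and Sar1b (0.10, SE 0.11), which serve export carriers, did not pass. Of 4 genes of Apob mRNA editing 2 were tested and 0 passed averaged, A1cf at -0.05 (SE 0.11) and Rbm47 at -0.21 (SE 0.08, adjusted p = 0.0557). Rbm47 was called in 9 of 27 alternatives, among them DESeq2 (0.0284), RLE size factors (0.0453), the length index (0.013) and 6 fits that left out 1 library: vehicle sedentary 2 (0.0114) or 5 (0.0427), OC sedentary 1 (0.0449) or 3 (0.0349), and OC running 2 (0.0415) or 5 (0.0499). In running mice alone Rbm47 was lower (-0.40, adjusted p = 0.022).

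Among 10 tested receptor genes of 12, 0 rose and 3 fell averaged over activity, beside 11.9% of all genes higher and 11.0% lower. In sedentary mice 1 rose and 2 fell, beside 9.11% of all genes higher and 7.20% lower. In running mice 0 rose and 2 fell, beside 7.09% of all genes higher and 6.06% lower. Vldlr, the very low density lipoprotein receptor, was at 18.4 to 49.4 CPM in vehicle sedentary and 19.2 to 37.8 CPM in vehicle running libraries, and at 6.75 to 15.9 and 9.05 to 14.6 CPM in the OC libraries of the same activity. No OC library reached a vehicle library, and the averaged log2 fold change was -1.55 (SE 0.17, adjusted p = 1.09e-06). The fatty acid transporter gene Cd36 fell by 0.73 (adjusted p = 0.00406) and Sdc1, a heparan sulphate proteoglycan that takes up remnants, by 0.37 (adjusted p = 0.00941). The remnant receptor gene Lrp1 (0.16, SE 0.10, adjusted p = 0.281, and adjusted p = 0.0343 with library totals alone) did not pass.

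In the list of remodelling and lipid export 14 of 17 genes were tested, and 1 rose and 4 fell averaged over activity, beside 11.9% of all genes higher and 11.0% lower. Lmf1, which matures lipases, had sedentary means of 41.4 ± 5.79 CPM on vehicle and 76.4 ± 4.49 CPM on OC (SD, n = 5) and rose 1.77-fold when averaged (SE 0.07 on the log2 scale, adjusted p = 3.21e-08). Pltp, the phospholipid transfer protein, fell by 0.87 (SE 0.16, adjusted p = 0.00045) and Lcat, which apolipoprotein A-I activates, by 0.35 (SE 0.08, adjusted p = 0.00273). Pon1, an esterase of high density lipoprotein, was at -0.28 (SE 0.11, adjusted p = 0.0656, and adjusted p = 0.00114 without vehicle sedentary replicate 2). Angptl4 was at -0.13 (SE 0.19, adjusted p = 0.672).

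Of 26 regulators of apolipoprotein genes 13 were tested, and 3 rose and 1 fell averaged over activity, beside 11.9% of all genes higher and 11.0% lower. By activity, 3 rose and 0 fell in sedentary mice (median log2 fold change 0.13), beside 9.11% of all genes higher and 7.20% lower. In running mice 0 rose and 2 fell (median -0.21), beside 7.09% of all genes higher and 6.06% lower. The difference between activities was called for 0 genes in edgeR. Ppara, the fatty acid receptor that governs lipid oxidation and several apolipoprotein genes, fell by 0.54 (SE 0.13, adjusted p = 0.00534). Foxa1 (0.42, adjusted p = 0.0239), the oestrogen receptor gene Esr1 (0.34, adjusted p = 0.033) and Creb3l3, a factor known to act on Apoa4 (0.25, adjusted p = 0.0361), rose. The Foxa1 call was lost without vehicle running replicate 1, OC sedentary 3 or OC running 5 (adjusted p = 0.0504 to 0.0564). The Esr1 call was lost in 8 of 20 such fits (adjusted p = 0.0506 to 0.0736), those without vehicle sedentary 2 or 3, vehicle running 1 or 2, OC sedentary 3, or OC running 2, 4 or 5. The Creb3l3 call was lost in 13 of 20 (adjusted p = 0.0503 to 0.0829), all but those without vehicle sedentary 1, 2 or 4, vehicle running 5, OC sedentary 5, or OC running 1 or 4. Mlxipl (0.29, SE 0.17) and Srebf1 (-0.19, SE 0.27) did not pass. Hnf4a had no intact line and was not analysed here. Running, averaged over diet, changed 0 genes of any of these lists in edgeR.

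Some markers of other liver cells were called on OC. Of 7 stellate cell markers 5 fell averaged over activity and 0 rose, beside 11.0% of all genes lower. In sedentary mice 5 fell, beside 7.20% of all genes lower, and in running mice 2, beside 6.06%. The interaction was called for 0 of all genes in edgeR (0%). The 7 had a summed CPM of 428 to 739 in vehicle sedentary, 372 to 521 in vehicle running, 255 to 464 in OC sedentary and 271 to 442 in OC running libraries. Vehicle sedentary replicate 2 held the 739 CPM. Of 7 intact Kupffer cell and macrophage markers of 11, 1 rose and 0 fell averaged over activity, beside 11.9% of all genes higher and 11.0% lower. Their summed CPM was 255 to 439 in vehicle and 305 to 467 in OC libraries. Of 5 intact sinusoidal endothelial and 5 tested cholangiocyte markers 0 were called averaged over activity. Of 3 tested lymphocyte markers of 6, 2 fell averaged, Cd79a (-1.24, adjusted p = 0.000558) and Cd79b (-0.64, adjusted p = 0.0448), at a summed 2.86 to 8.89 CPM in vehicle and 1.75 to 4.2 CPM in OC libraries. Of 2 tested adipocyte markers of 4, 1 fell averaged, Plin1 (-1.79, adjusted p = 0.048), and the 3 intact ones summed to 0.317 to 19.5 CPM in vehicle and 0.221 to 8.41 CPM in OC libraries. Both counts stand beside the same 11.0% of all genes lower. Macrophages and stellate cells also express Apoe and Apoc1 to some degree, and the part of these cells in the values above was not tested.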

How the data were processed

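Messenger RNA of 20 livers was sequenced from stranded paired-end libraries, per the labels' protocols. STAR, build mm10, R 4.05 and limma are named in the submitters' processing notes; the counting program, annotation and strand setting are not given in the sources used here. The authors deposited 1 table of expected counts per gene, made from STAR alignments per the submitters' processing notes and not scaled between libraries. The name of the unit rests on non-whole values in 2 genes, and rounding to whole numbers changed no value used. Of 35504 lines 11511 (32.42%) were left out, so that totals miss their counts: lines whose values were displaced, lines that could not be told from displaced ones (806 with low counts, and 9824 with a 1 followed by zeros), and 2 with non-whole values.

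Genes were filtered with filterByExpr, scaled by TMM and tested with edgeR 4.0.16 (quasi-likelihood, 1 mean per group, all 20 libraries, Benjamini-Hochberg over 10207 genes) in R 4.3.3. The filtered genes held 99.95% of counts, and the common biological coefficient of variation was 0.1779. Correlations used log2(CPM + 0.5). Positions are GENCODE vM21 on GRCm38, as are exon lengths. Alternatives were RLE size factors, library totals alone, DESeq2 1.42.0, limma 3.58.1 with voom, no filter, lines moved by 1 place put back, the 2 groups compared only, and each library left out. The fit with moved lines put back used every library but vehicle running replicate 5, for which those lines hold no value. The test was also run on counts simulated from its own fitted spread. These held no outlying library and no trend of long against short genes, and nothing is drawn from them here. Replicate numbers follow accession order, and each library is 1 mouse.

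The members and lists were chosen with earlier results of these data known. From each list up to 3 genes called in each direction in the averaged OC contrast were named, smallest adjusted p first, with up to 2 uncalled genes of highest mean CPM; likeness was read among genes averaging 10 CPM or more. Genes without an intact line were not analysed here. Some genes that this rule names are not reported here. Confidence intervals are unadjusted.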

Additional observations from a re-analysis of the deposited data

Results flagged for a closer look

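In 8 of 52 groups of 5 libraries, 1 library lay far from the other 4 for a gene (its gap to the nearest, divided by the range of the group, was above 0.71), and chance gives this in about 1 group in 20. In the vehicle sedentary group the library set apart was replicate 2 for 4 genes. Apoa4 was at 4758.08 CPM and Apoc2 at 938.157 CPM, each the highest of the group. Apoa2 was at 4528.8 CPM and Apoh at 2020.21 CPM, each the lowest of the group. The same library held the highest summed stellate cell (739 CPM) and cholangiocyte (129 CPM) markers of all 20. Their part in these values was not tested.

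Replicate 5 was the lowest for Apoa1 in both OC groups, at 9047.06 CPM in sedentary and 8440.77 CPM in running mice. In the OC running group replicate 1 was the highest for Apoa2 (8931.58 CPM) and Apoc1 (8952.63 CPM), and its index of long against short genes was the lowest of all libraries, at -0.31.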

How the results depend on the processing

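Of the 10 genes, 3 to 5 were called in sedentary mice in every alternative, and running and the interaction gave 0 in all. In running mice the count on OC was 2 in DESeq2, 0 with moved lines put back, and 0 to 2 with a library left out. Averaged over activity it was 2 with library totals alone, 3 with moved lines put back and 3 to 5 with a library left out. Of 2987 single-gene values 82 changed sign, 14 of them with library totals alone. In 7 the value as reported was larger than its SE or was called: with library totals alone for Apoe on OC in running mice (0.0127) and, averaged, for Apoc3 (0.0103) and Sik3 (0.00567); with limma voom for Apoa4 by running on vehicle (0.0196); and with the length index as covariate for Apoc3 by running on OC (-0.0234). With a library left out, Apoa4 by running on vehicle ran from -1.04 to 0.74 and its interaction from -0.60 to 1.18. The cause was not tested, except that fewer samples enter each fit without a library. No paired analysis was possible because the replicate numbers follow accession order. Moved lines lack vehicle running replicate 5, so the fit with them put back also left out that library. For Apoa4 on OC in running mice that fit gave an edgeR adjusted p of 0.0524, and leaving out that library alone gave 0.052. The lowest count of any of the 10 genes was 1891, so depth did not limit them. How far scaling and the spread between 5 mice per group each did was not tested.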
